A study of Homo sapiens with 9 samples.

Results

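The proteasome genes were taken as every gene of the count table whose symbol starts with PSM, goes on with a letter from A to G and ends in a number. The table of 16612 genes held 46 of them, and all 46 were among the 16312 genes tested. They were sequenced in HNT34, a human acute myeloid leukemia cell line with high expression of EVI1, the transcription factor encoded by MECOM. The cells carried a lentiviral shRNA without a target (NT) or, against EVI1, sh#16 or sh#87. They had been selected with puromycin in all groups and were collected 3 days after selection, with 3 libraries per group. In 1 field of the labels the sh#87 libraries carry the number 18, and they were grouped by their titles. The sources used here do not say whether the libraries of a group came from separate cultures, so p-values measure the spread between libraries, which may be technical. Where both shRNAs were fitted as 1 group, that spread also holds the difference between sh#16 and sh#87.

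The proteasome is the barrel-shaped protease that degrades proteins marked with ubiquitin. Its 20S core is built from rings of alpha (PSMA) and beta (PSMB) subunits, and the proteolytic sites lie on PSMB5, PSMB6 and PSMB7. In immune cells and under interferon, PSMB8, PSMB9 and PSMB10 take the places of PSMB5, PSMB6 and PSMB7 and form the immunoproteasome, whose peptides feed presentation on MHC class I. The 19S cap recognises and unfolds substrates: its base holds the ATPases (PSMC) and large scaffold subunits, and its lid holds the deubiquitinase PSMD14. Chaperones assemble both parts, PSMG1 to PSMG4 the core and PSMD5, PSMD9 and PSMD10 the base. Core and cap genes are commonly controlled together, through the transcription factor NFE2L1.

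The depth was between 17096170 and 43502389 estimated counts per library, and levels are given as CPM, counts scaled to a common, TMM-normalized library size. MECOM, the targeted gene, stood at 571, 504 and 440 CPM in NT, at 143 to 145 CPM in sh#16 and at 106 to 109 CPM in sh#87 libraries (log2 fold change of both shRNAs against NT −2.004 ± 0.14 (SE), adjusted p = 9.18e-07 by edgeR's quasi-likelihood test). The NT libraries differed more from each other than the knockdown libraries did. Mitochondrially encoded genes took 15.9%, 11.6% and 4.69% of the counts of NT replicates 1, 2 and 3, against 2.69% to 5.97% in the knockdown libraries. Of 15 markers of cell types, 9 had values. With both shRNAs, 2 of these were called higher and 5 lower, against 30.1% and 29.7% of all genes tested. The summed CPM of the 5 myeloid and progenitor markers was 1160 to 1270 in NT, 481 to 496 in sh#16 and 251 to 260 in sh#87. CD34 gave most of this sum in NT, with a mean of 731 CPM against 116 in sh#16 and 42.4 in sh#87. CD34, KIT and SPI1 were called lower with both shRNAs, and CD33 and ANPEP were not called. Mean ANPEP was 270 CPM in NT, 284 in sh#16 and 139 in sh#87. The B cell marker CD79A was at 13.7 to 40.2 CPM in NT and 1.02 to 3.83 CPM in the knockdown libraries, and the T cell marker CD3E was at 7.14 to 10.1 against 2.64 to 5.26 CPM. COL1A1, a collagen gene of fibroblasts, was at 0.0434 to 0.172 CPM in NT and at 25.9 to 30.3 CPM in the knockdown libraries. The part of these shifts in the results was not tested, and in bulk RNA fewer cells of a type and less RNA per cell cannot be told apart.

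Together the proteasome genes took 0.253%, 0.268% and 0.299% of the counts in the NT libraries, 0.355% to 0.357% in sh#16 and 0.314% to 0.316% in sh#87. The mitochondrially encoded genes are part of these totals. On the TMM scale used for all other levels the order of NT and sh#87 turned: the members summed to 3115 to 3145 CPM in NT, 3306 to 3341 CPM in sh#16 and 2903 to 2989 CPM in sh#87. No member had a count of 0 in any library. Per kilobase of the canonical transcript, the NT levels ran from 7.92 CPM per kb for PSMD9 to 107 CPM per kb for PSMA6. The immunoproteasome subunits lay low in this order, PSMB8 at 22.9, PSMB10 at 11.3 and PSMB9 at 11.2 CPM per kb, below PSMB7 at 54.4, PSMB5 at 37.4 and PSMB6 at 33.5.

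With both shRNAs set against NT, the proteasome did not move as a block. A gene was called at an adjusted p of at most 0.01 over all genes tested. Of the 46 genes, 7 were higher and 9 lower, in a background where 30.1% of all genes tested were called higher and 29.7% lower. Those higher were PSMB3, PSMB4, PSMD1, PSMD2, PSMD3, PSMD9 and PSMD13, and those lower were PSMA4, PSMB8, PSMB10, PSMC1, PSMC5, PSMD6, PSMD7, PSMD8 and PSMG4. Both directions thus occurred within the core, within the cap and within the lid. Changes were mostly small: 42 of the 46 stayed within 1 on the log2 scale, as 57.8% of all genes did. Of the called genes that changed by 1 or more on the log2 scale, PSMD2 was higher (background 21.0%) and PSMA4, PSMB8 and PSMB10 lower (background 17.1%). The 6 knockdown libraries lay wholly above the 3 NT libraries for 9 members and wholly below for 13, against 33.9% and 32.1% of all genes. The members' median log2 fold change was −0.11, that of all genes 0.05, and upper-quartile normalization shifted both to 0.0048 and 0.16.

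Each shRNA was also compared with NT on its own, and these comparisons share the NT libraries. With sh#16, 10 members were higher and 9 lower (background 29.8% and 30.2%); upper-quartile normalization gave 14 and 7. With sh#87, 10 were higher and 19 lower (background 34.3% and 33.6%). The 16 genes named above were called in the same direction with each shRNA. For PSMD9 with sh#16 that call was lost in 9 of 17 alternative runs. Among these were the runs without 7 of the 9 libraries in turn (adjusted p 0.0102 to 0.0284). PSMA2, PSMA3 and PSMA5 were called higher with sh#16. PSMC4, PSME2 and PSME4 were called higher with sh#87, where PSMA1, PSMA6, PSMB9, PSMC2, PSMD5, PSMD12, PSMD14, PSME1, PSME3 and PSMG1 were called lower.

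**Figure D1:**
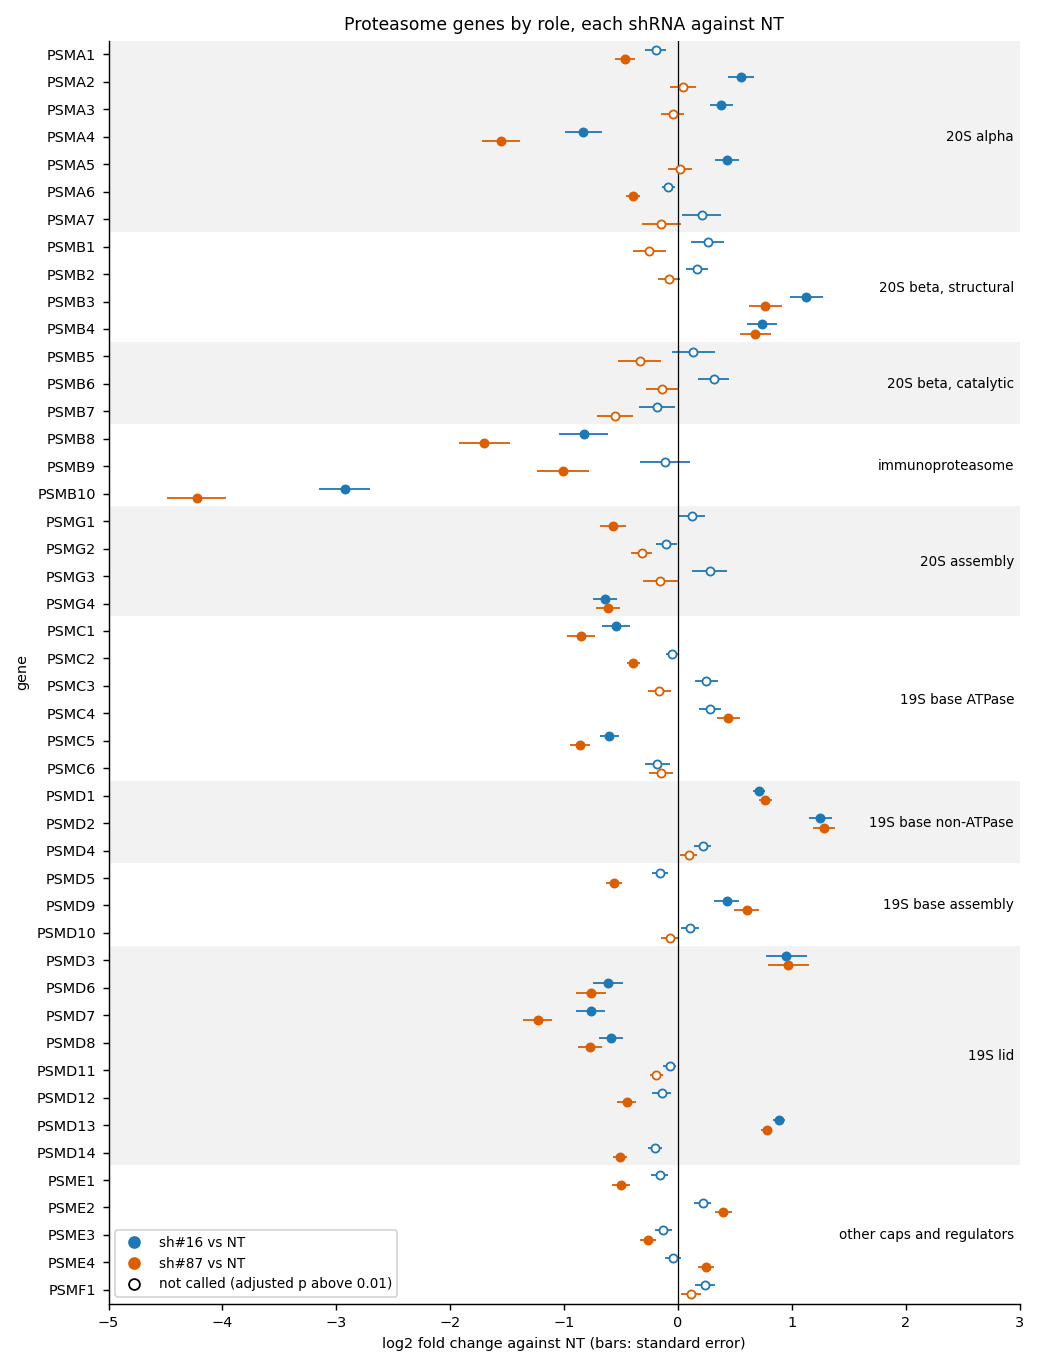
Log2 fold change of each of the 46 proteasome genes against NT (x axis), with sh#16 in blue and sh#87 in orange, grouped by role. Bars are standard errors from the fit of all 9 libraries as 3 groups, which share 1 estimate of the spread. Open circles were not called. PSMB10 stands farthest to the left at −2.93 and −4.23, while PSMD2 stands farthest to the right with sh#87 at 1.28.

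PSMB10, an immunoproteasome subunit, had the lowest log2 fold change of the 46 genes with both shRNAs and with each. This trypsin-like subunit (chromosome 16, 67934506 to 67936850 on GRCh38.p14) was at 8.39, 12.1 and 12.7 CPM in NT, at 1.32, 1.38 and 1.70 CPM in sh#16 and at 0.790, 0.447 and 0.508 CPM in sh#87. The groups did not overlap. Its log2 fold change with both shRNAs was −3.42 ± 0.35 (SE; adjusted p = 1.32e-05), with −2.93 ± 0.23 for sh#16 and −4.23 ± 0.26 for sh#87, which is 7.61-fold and 18.7-fold lower. The sh#87 libraries held 19, 10 and 10 counts of PSMB10, so that counting error is large there.

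PSMB8, the chymotrypsin-like subunit (chromosome 6, 32840717 to 32844679), was at 17.2, 24.8 and 35.4 CPM in NT, at 14.2, 14.2 and 15.3 in sh#16 and at 7.65, 8.22 and 7.98 in sh#87. All knockdown libraries were below all NT libraries, although NT itself spread over a wide range. The log2 fold change was −1.19 ± 0.28 (SE; adjusted p = 0.00324), with −0.83 ± 0.21 for sh#16 (adjusted p = 0.00676) and −1.70 ± 0.22 for sh#87 (adjusted p = 9.19e-05). The call with both shRNAs was lost without NT replicate 2 (−1.23, adjusted p = 0.0109) and without NT replicate 3 (−0.92, adjusted p = 0.0188). The call with sh#16 was lost in 10 of 17 alternative runs. Among these were the runs without 7 of the 9 libraries in turn, with adjusted p between 0.0126 and 0.0259 and values between −0.86 and −0.80.

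PSMB9, which replaces the caspase-like subunit PSMB6 (chromosome 6, 32854192 to 32859851), was at 14.9, 11.8 and 7.41 CPM in NT, at 11.6, 10.4 and 9.31 in sh#16 and at 5.53, 6.08 and 5.19 in sh#87. The sh#16 libraries lay inside the NT range and the sh#87 libraries below it. Its log2 fold change was −0.49 ± 0.30 (SE, adjusted p = 0.162) with both, −0.11 ± 0.22 with sh#16 (adjusted p = 0.660) and −1.01 ± 0.23 with sh#87 (adjusted p = 0.00281). The call with sh#87 was lost in 4 of 17 alternative runs. Among these were the runs without NT replicate 2, sh#87 replicate 1 or sh#87 replicate 3 (adjusted p 0.0104 to 0.0132).

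None of the 3 constitutive catalytic subunits passed edgeR's test with both shRNAs, the count at an unadjusted p of 0.05 was also 0, and none passed by DESeq2. PSMB5 was at 27.9, 38.1 and 51.1 CPM in NT, 42.2 to 43.6 in sh#16 and 28.9 to 34.9 in sh#87, with a log2 fold change of −0.08 ± 0.20 (SE; adjusted p = 0.729) for both shRNAs. PSMB6 had a value of 0.10 ± 0.18 (adjusted p = 0.611) and PSMB7 of −0.36 ± 0.17 (adjusted p = 0.0755). With sh#87 alone, PSMB7 was at −0.55 ± 0.16 and not called by edgeR (adjusted p = 0.0101), but it was called by DESeq2 (−0.57, adjusted p = 0.0032) and without NT replicate 3 (−0.73, adjusted p = 0.000206).

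**Figure D2:**
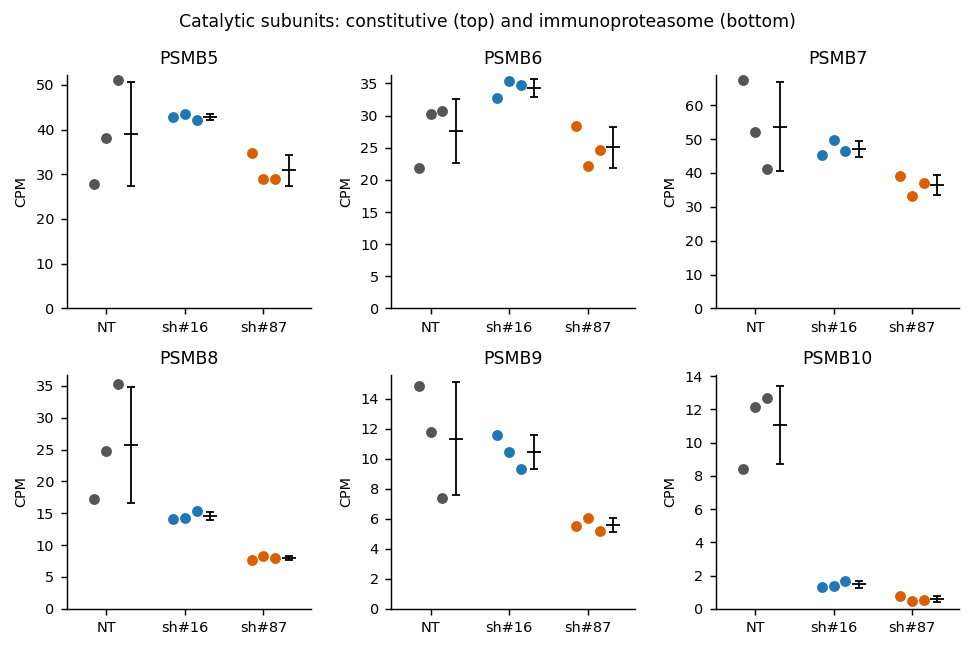
CPM of the 6 catalytic subunits in each library (points; y axes from 0, NT grey, sh#16 blue, sh#87 orange), with the mean ± SD of the 3 libraries beside them; constitutive subunits above, the immunoproteasome subunits that replace them below. NT levels of PSMB8 spread from 17.2 to 35.4 CPM, and those of PSMB10 drop from 8.39 to 12.7 CPM in NT to at most 1.70 CPM with an shRNA.

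Within a library, the ratio of an immunoproteasome subunit to the subunit it replaces does not depend on the normalization. The count ratio PSMB8/PSMB5 was 0.619, 0.650 and 0.692 in NT, 0.327 to 0.364 in sh#16 and 0.220 to 0.284 in sh#87. NT, which spread widely in the level of either gene, was tight in this ratio. The mean log2 ratio was lower by 1.14 with both shRNAs (2.20-fold; 2-sided exact permutation test of 6 against 3 libraries, p = 0.0119, the smallest it can give; 0.0179 after Benjamini-Hochberg adjustment over the 3 ratios). PSMB10/PSMB7 was 0.125, 0.233 and 0.308 in NT, 0.0279 to 0.0366 in sh#16 and 0.0135 to 0.0202 in sh#87. That is a difference of −3.24 on the log2 scale, or 9.46-fold (exact p = 0.0119, adjusted 0.0179).

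PSMB9/PSMB6 behaved otherwise. It was 0.680, 0.390 and 0.241 in NT, 0.268 to 0.355 in sh#16 and 0.195 to 0.275 in sh#87, so that NT replicate 3 lay among the knockdown libraries. The difference of −0.62 did not pass (exact p = 0.131, adjusted 0.131); without NT replicate 3 it was −0.98 (exact permutation test, adjusted p = 0.0357). For single shRNAs the test of 3 against 3 cannot go below 0.1, and PSMB8/PSMB5 and PSMB10/PSMB7 reached that value with each. Without 1 NT library the exact test of 6 against 2 cannot go below 0.0357 before adjustment. Without NT replicate 1 or 2, PSMB8/PSMB5 (−1.18 and −1.14) and PSMB10/PSMB7 (−3.61 and −3.16) stood at that limit, which is 0.0536 after adjustment.

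The gene starts of the immunoproteasome subunits are shown because interferon acts on these genes through short motifs at their promoters. RefSeq promoters on GRCh38.p14 (250 bases before to 50 after a start) were listed for 40 of the 46 members, not for PSMA7, PSMB1, PSMB6, PSMB7, PSMD4 and PSMG3. The letters GAAANNGAA, a core of the interferon response element searched on both strands, stood in the promoters of 8 of the 40 members and in 9.86% of all 27305 genes with a listed promoter. The 8 were PSMA4, PSMB4, PSMB8, PSMB10, PSMC2, PSME1, PSME2 and PSMG4. Windows of 30 bases on the gene's strand follow, with the match in capitals (in PSMB8 it is read on the opposite strand); PSMA4 and PSMG4 are set beside them because they were called lower and PSMB4 because it was called higher.
PSMB10, chr16:67936851-67936880: ggtaaaggcGAAAGCGAAagcaggaagtac
PSMB8, chr6:32844030-32844059: tctgtggctTTCGCTTTCacttcctcctcc
PSMG4, chr6:3258905-3258934: tccggggccGAAAGCGAAagcgcgctcggt
PSMA4, chr15:78540156-78540185: tagtgaagaGAAAATGAAaggagagcgcca
PSMB4, chr1:151399496-151399525: cgtctacagGAAAAAGAAagaaatgacact
The promoter of PSMB9 held no such match. Of the 8 members with the letters, 1 was called higher and 4 lower with both shRNAs, and of the 32 without them 6 were higher and 5 lower. Over all genes tested, 30.1% were called higher and 29.7% lower. Whether the letters bear on the calls was not tested. A match is a description of the letters and not a site in use.

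Of the list's 7 interferon-axis genes tested, TAP1 was higher and TAP2 lower with both shRNAs (background 30.1% and 29.7%). The other 5 were not called in that comparison. With sh#16, IFNGR1, NLRC5 and TAP1 were called higher and TAP2 lower (background 29.8% and 30.2%). With sh#87, 0 were called higher, and IFNGR2 and TAP2 lower (background 34.3% and 33.6%). IRF1, which binds GAAANNGAA-type elements, had a log2 fold change of 0.02 ± 0.11 (SE; adjusted p = 0.859). TAP1, the peptide transporter gene that lies between PSMB8 and PSMB9 on chromosome 6 (32845209 to 32853704), was at 3.10, 5.25 and 7.74 CPM in NT, 11.8 to 12.4 in sh#16 and 8.08 to 10.6 in sh#87. Its log2 fold change of 1.02 ± 0.26 (adjusted p = 0.00472) was opposite in sign to that of its neighbour PSMB8. With sh#87 alone TAP1 was not called by edgeR (0.84 ± 0.27, adjusted p = 0.0177), but it was called by DESeq2 (0.84, adjusted p = 0.00368), with upper-quartile normalization (0.96, adjusted p = 0.00796) and without NT replicate 3 (1.199, adjusted p = 0.00028). The call with both shRNAs was lost without NT replicate 1 (0.73, adjusted p = 0.0116) and without NT replicate 2 (0.997, adjusted p = 0.0213). TAP2, on the other side of PSMB8, fell by 0.74 ± 0.11 on the log2 scale (adjusted p = 0.000160).

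Of the alpha ring (7 genes), PSMA4 was called with both shRNAs, and it was lower. Of the structural beta subunits (4 genes), PSMB3 and PSMB4 were called, and they were higher. Over all genes tested, 30.1% were called higher and 29.7% lower, and a difference between the 2 sets was not tested. PSMA4, an alpha ring subunit, was at 212, 154 and 124 CPM in NT, at 88.0, 89.4 and 97.8 in sh#16 and at 57.1, 54.2 and 55.5 in sh#87. The groups were ordered without overlap. Its log2 fold change was −1.15 ± 0.23 (SE; adjusted p = 0.00112) with both shRNAs, −0.83 ± 0.16 with sh#16 and −1.55 ± 0.17 with sh#87.

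PSMB3, a non-catalytic subunit of the beta ring, was at 21.2, 24.8 and 33.6 CPM in NT, 57.3 to 58.7 in sh#16 and 43.9 to 46.1 in sh#87. All knockdown libraries were above NT (log2 fold change 0.96 ± 0.17 (SE), adjusted p = 0.000455). PSMB4, another such subunit, was at 58.8, 79.0 and 91.4 CPM in NT and 119 to 128 CPM in the knockdown libraries (0.71 ± 0.12, adjusted p = 0.000447). PSMB1 and PSMB2 were not called in any of the comparisons with NT.

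PSMA2, PSMA3 and PSMA5, alpha subunits, were called higher with sh#16 and not with sh#87. PSMA2 was at 48.5, 47.8 and 62.3 CPM in NT, 74.5 to 81.9 in sh#16 and 49.3 to 58.7 in sh#87. The sh#87 libraries lay inside the NT range. Its log2 fold change was 0.55 ± 0.11 (SE; adjusted p = 0.00203) with sh#16, a call lost without NT replicate 2 (0.48, adjusted p = 0.0105), and 0.05 ± 0.11 (adjusted p = 0.724) with sh#87.

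In the 19S base, PSMD1 and PSMD2, the large scaffold subunits that bind ubiquitin receptors and shuttles, rose together. PSMD2 was at 80.3, 97.5 and 105 CPM in NT, at 213 to 233 in sh#16 and at 215 to 243 in sh#87. The knockdown groups lay well above NT and overlapped each other. The log2 fold change was 1.27 ± 0.10 (SE; adjusted p = 2.28e-06), 2.40-fold. PSMD1 was at 81.2 to 85.6 CPM in NT and 133 to 146 CPM with either shRNA (0.74 ± 0.07, adjusted p = 7.67e-06). PSMD4, a ubiquitin receptor of the base, was not called (0.16 ± 0.08, adjusted p = 0.123).

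Of the 6 ATPases of the base, PSMC1 and PSMC5 were called by edgeR with both shRNAs, and both were lower. Over all genes tested, 30.1% were called higher and 29.7% lower. PSMC5 was at 100, 102 and 87.6 CPM in NT, 61.6 to 66.8 in sh#16 and 50.1 to 58.2 in sh#87 (−0.73 ± 0.11 (SE), adjusted p = 0.000147). PSMC1 had 62.9 to 88.6 CPM in NT and 36.8 to 50.9 CPM in the knockdown libraries (−0.69 ± 0.14, adjusted p = 0.00103). These values carry a limit: 83.2% of the canonical exon bases of PSMC1 overlap NRDE2 on the opposite strand and 13.7% of those of PSMC5 overlap FTSJ3, and the strand setting of the counting is not given in the sources used here. The pseudogene PSMC1P1, whose reads may be shared with PSMC1, was also lower (−1.14 ± 0.16, adjusted p = 0.000115). PSMC4 had the highest value of the ATPases, 0.36 ± 0.11, and was not called by edgeR with both shRNAs (adjusted p = 0.0103). It was called higher by DESeq2 (adjusted p = 0.00211), limma-voom (adjusted p = 0.00987), with upper-quartile normalization (adjusted p = 0.00204), without a filter (adjusted p = 0.00975) and without NT replicate 3 (adjusted p = 0.00477). With edgeR it was called with sh#87 (0.44 ± 0.10, adjusted p = 0.00277), a call lost in 3 of 17 alternative runs. Among these were the runs without sh#87 replicate 2 (0.44, adjusted p = 0.0111) or 3 (0.42, adjusted p = 0.0119).

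The chaperones of the base were mixed. PSMD9 was at 18.0, 23.2 and 23.6 CPM in NT, 26.9 to 30.2 in sh#16 and 31.5 to 34.4 in sh#87 (0.52 ± 0.12 (SE), adjusted p = 0.00261; without NT replicate 1, 0.39 and adjusted p = 0.0107). PSMD5 was at 55.1 to 64.8 CPM in NT, 53.2 to 53.9 in sh#16 and 40.4 to 40.8 in sh#87, and was called lower with sh#87 (−0.56 ± 0.07, adjusted p = 7.20e-05) and not with sh#16 (−0.16 ± 0.07, adjusted p = 0.0686). PSMD10, the third of them, was not called.

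The lid had members that moved in opposite directions under the same shRNAs. With both, 2 of its 8 genes were higher and 3 lower (background 30.1% and 29.7% of all genes tested). PSMD3, a structural lid subunit, was at 54.0, 80.6 and 100 CPM in NT, 148 to 156 in sh#16 and 148 to 156 in sh#87 (0.96 ± 0.16 (SE), adjusted p = 0.000320). PSMD13, also structural, was at 58.5 to 59.8 CPM in NT and 100 to 111 CPM with either shRNA (0.83 ± 0.07, adjusted p = 4.25e-06). PSMD7, the partner with which the deubiquitinase PSMD14 pairs, was at 105, 86.6 and 70.7 CPM in NT, 49.8 to 54.0 in sh#16 and 36.97 to 37.8 in sh#87.

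All knockdown libraries of PSMD7 lay below NT, and those of sh#87 below those of sh#16 (log2 fold change −0.98 ± 0.16 (SE), adjusted p = 0.000331). An unnamed locus on the opposite strand, with no value in the table, overlaps 51.6% of the canonical exon bases of PSMD7. PSMD6 and PSMD8, further structural lid subunits, had −0.69 ± 0.12 (adjusted p = 0.000454) and −0.68 ± 0.11 (adjusted p = 0.000246). PSMD14 itself was at 81.2 to 92.0 CPM in NT, 73.5 to 76.8 in sh#16 and 60.1 to 62.1 in sh#87, a change called with sh#87 (−0.51 ± 0.06, adjusted p = 6.49e-05) and not by edgeR with both (−0.35 ± 0.11, adjusted p = 0.0137), where DESeq2 called it (−0.36, adjusted p = 0.0037).

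**Figure D3:**
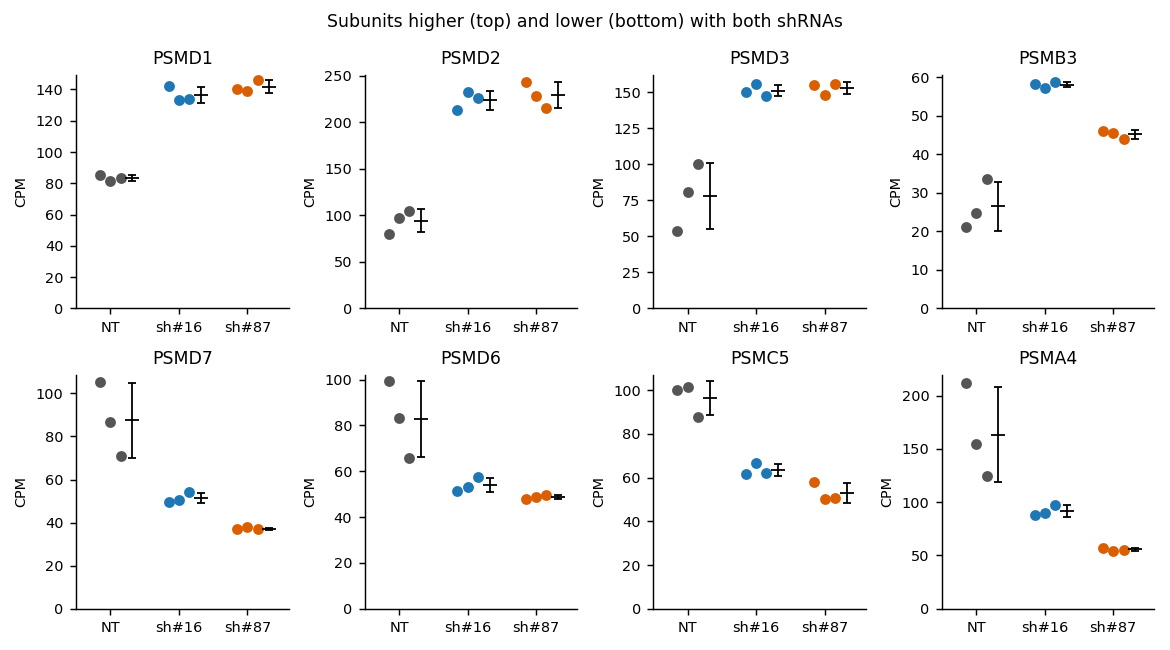
CPM per library (points; y axes from 0; NT grey, sh#16 blue, sh#87 orange; mean ± SD of 3 beside them) of 4 subunits called higher with both shRNAs (PSMD1, PSMD2, PSMD3, PSMB3; top) and 4 called lower (PSMD7, PSMD6, PSMC5, PSMA4; bottom). For each of the 8 genes the 6 knockdown libraries lie on 1 side of the 3 NT libraries; PSMD2 goes from at most 105 CPM to at least 213 CPM.

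Promoters of core and cap genes often carry an antioxidant-type element, to which NFE2L1 and NFE2L2 bind with small MAF proteins, and its core letters TGACNNNGC were searched on both strands. They stood in 15 of the 40 member promoters and in 16.1% of all 27305. The windows of PSMD3 and PSMB3, called higher, and of PSMA4 and PSMC5, called lower, are shown because they hold the same letters and moved in opposite directions; in PSMC5 the match is on the opposite strand.
PSMD3, chr17:39980761-39980790: cccctttgtTGACTCGGCcatcggcctgcc
PSMB3, chr17:38752628-38752657: cctccgtttTGACTTTGCaaccaaactacc
PSMA4, chr15:78540651-78540680: tgggcacgaTGACTCTGCaccgcctcctct
PSMC5, chr17:63827655-63827684: accggatctGCTGTGTCAgcgccgccctcg
Of the 15 members with these letters, 4 were higher and 2 lower with both shRNAs (median log2 fold change −0.18). Of the 25 without them, 3 were higher and 7 lower (median −0.17). The shares over all genes tested were 30.1% higher and 29.7% lower. Counted by gene in the same way, the ETS-type letters CCGGAAGT stood in 22.5% of members against 4.95% of all genes. The letters TTCNNNGAA stood in 17.5% against 9.38% and the E-box CACGTG in 3 of 40 against 8.78%. Whether matches of different motifs overlap was not counted. The windows of PSMA4 shown for both motifs lie at different listed starts of that gene.

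Of the NFE2L1-axis genes, 9 were tested, of which 1 was higher and 5 lower with both shRNAs, against 30.1% and 29.7% of all genes. NFE2L1 itself, chosen after its values were seen, was at 202 to 227 CPM in NT, 135 to 140 in sh#16 and 120 to 123 in sh#87 (−0.72 ± 0.08 (SE), adjusted p = 2.21e-05). MAFG, a small MAF partner, had the lowest value of the regulators at −0.93 ± 0.16 (adjusted p = 0.000377). Over both axes, 2 of 16 regulators tested were higher and 6 lower.

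Of the 5 alternative cap and regulator genes, none was called by edgeR with both shRNAs (background 30.1% higher and 29.7% lower). At an unadjusted p of 0.05, 1 was higher and 2 were lower. The 5 genes are PSME1 and PSME2, which form the interferon-inducible PA28 cap, the nuclear activators PSME3 and PSME4, and the inhibitor PSMF1. PSME1 and PSME2, subunits of 1 ring, had values of opposite sign, −0.32 ± 0.12 (SE; adjusted p = 0.0322) and 0.31 ± 0.09 (adjusted p = 0.0128); PSME2 was called by DESeq2 (0.30, adjusted p = 0.00351). With sh#87 each was called, PSME1 at 65.2 to 69.2 CPM against 84.7 to 102 in NT (−0.50 ± 0.08, adjusted p = 0.000293) and PSME2 at 52.9 to 55.8 against 37.8 to 43.0 (0.40 ± 0.08, adjusted p = 0.000989). The pseudogene PSME2P2, whose reads may be shared with PSME2, rose with both (1.20 ± 0.26, adjusted p = 0.00210), a call lost without NT replicate 1 (0.99, adjusted p = 0.0107) or 2 (1.16, adjusted p = 0.0116).

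Of the 4 chaperones of the core, PSMG4 was lower with both shRNAs (background 29.7%). It was at 19.3, 23.1 and 24.0 CPM in NT, 13.5 to 15.02 in sh#16 and 13.2 to 15.4 in sh#87 (−0.63 ± 0.10 (SE), adjusted p = 0.000278). PSMG3 had the highest value, 0.08 ± 0.18 (adjusted p = 0.708). PSMG1 was at 31.2 to 41.2 CPM in NT, 35.9 to 41.5 in sh#16 and 22.4 to 25.8 in sh#87, and was called lower with sh#87 (−0.57 ± 0.12, adjusted p = 0.00152).

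**Figure D4:**
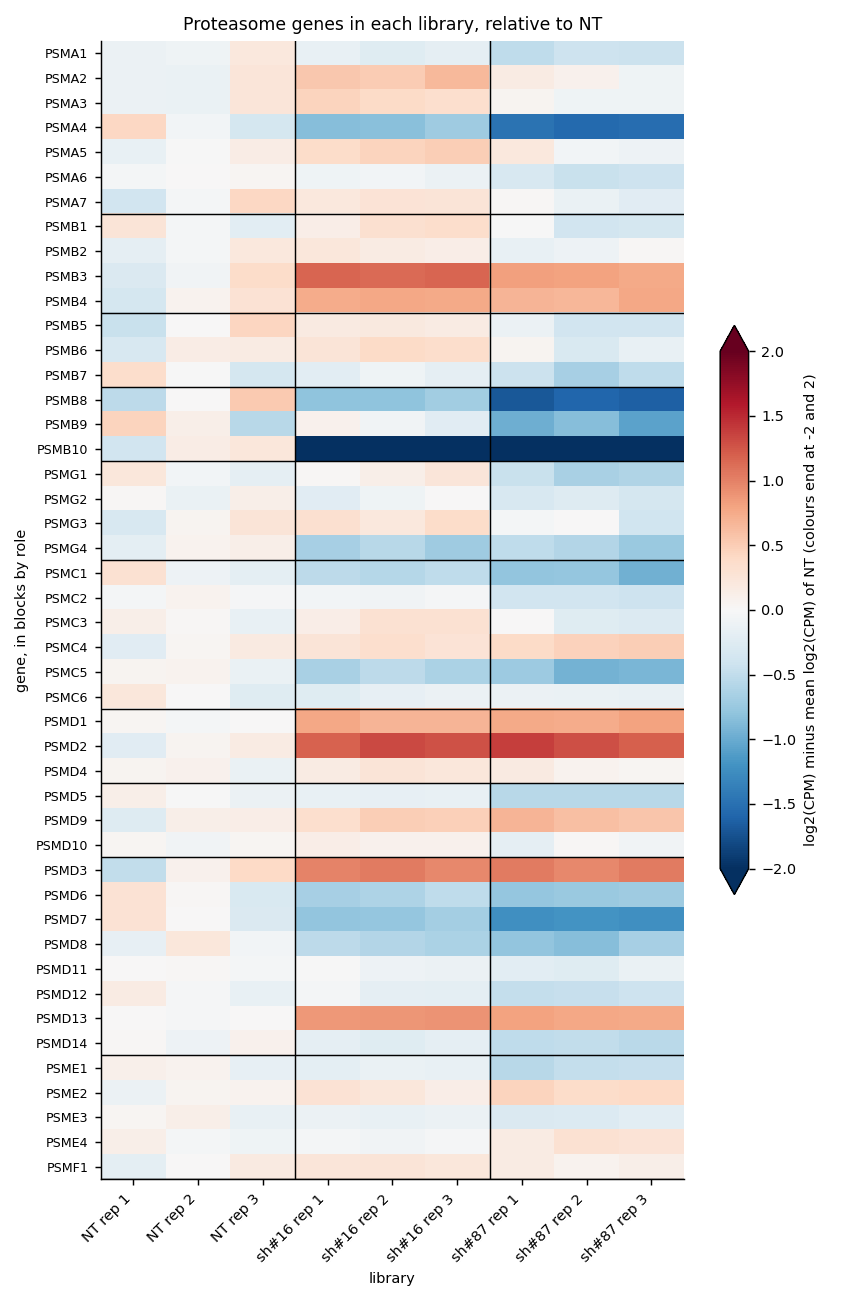
Log2 CPM of the 46 proteasome genes (y axis, in blocks by role) in each of the 9 libraries (x axis), minus the mean log2 CPM of the 3 NT libraries; red is higher, blue lower, and colours end at −2 and 2. The NT columns differ visibly for genes such as PSMB8 and PSMA4, most sh#87 entries are bluer than those of sh#16, and PSMB10 lies past the end of the scale with both shRNAs.

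The shRNAs were set against each other to ask whether the members responded alike to both. In sh#87, 37 of the 46 log2 differences from sh#16 were below 0, as were 51.4% of all genes, and the median was −0.31 against −0.02 over all genes. Of the members, 0 were called higher by edgeR (1 by DESeq2, and 2 at an unadjusted p of 0.05) and 8 lower, in a background of 8.29% called higher and 9.42% called lower. The 8 were PSMA2, PSMA4, PSMA6, PSMB10, PSMC2, PSMD5, PSMD14 and PSMG1. PSMB10 differed by −1.30 ± 0.28 (SE; adjusted p = 0.00751), PSMA4 by −0.72 ± 0.16 (adjusted p = 0.00974) and PSMG1 by −0.69 ± 0.12 (adjusted p = 0.00255).

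The number of these calls depended on which libraries were fitted. A fit of the 6 knockdown libraries alone called 3 members higher and 27 lower, where 48.0% of all genes were called. DESeq2 called 15 members and 24.6% of all genes. With single libraries left out the count was 0 without sh#16 replicate 2 or 3 (6.65% and 7.16% of all genes). It was also 0 without sh#87 replicate 2 or 3 (6.99% and 7.49%). It was 1 without sh#16 replicate 1 (7.2%) and 3 without sh#87 replicate 1 (9.92%). Without NT replicates 1, 2 and 3 it was 20, 5 and 22 (28.1%, 13.3% and 32.4%). The share of all genes called thus changed along with the member count. PSMB8 and PSMB9 lay wholly lower in sh#87 than in sh#16, with differences of −0.87 ± 0.22 (adjusted p = 0.0162) and −0.90 ± 0.23 (adjusted p = 0.0158). MECOM was also lower in sh#87 than in sh#16 (−0.43, adjusted p = 0.00661), and the mitochondrial share of counts was higher; their part in these differences was not tested.

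Proteasome proteins whose genes have no PSM symbol were described beside the members. Of the 10 tested, 2 were higher and 3 lower with both shRNAs, against 30.1% and 29.7% of all genes. ADRM1, a ubiquitin receptor of the cap, was at 28.6, 29.99 and 35.0 CPM in NT, 59.8 to 68.3 in sh#16 and 57.9 to 68.4 in sh#87 (0.99 ± 0.10 (SE), adjusted p = 1.41e-05). ECPAS, an adaptor that links the cap to other proteins and loosens it from the core, was at 260, 216 and 178 CPM in NT and 31.4 to 37.9 CPM in the knockdown libraries. It was 6.04-fold lower (−2.59 ± 0.11, adjusted p = 6.60e-08). POMP, the chaperone that matures the core, chosen after its values were seen, was at 43.7 to 47.2 CPM in NT, 78.7 to 82.1 in sh#16 and 52.9 to 54.8 in sh#87, and was called higher with each shRNA but not with both as 1 group (0.57 ± 0.17, adjusted p = 0.0120).

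Among 14 genes of ubiquitin supply and delivery, 4 were higher and 6 lower with both shRNAs, against 30.1% and 29.7% of all genes. UFD1, which works with the unfoldase VCP upstream of the proteasome, was at 41.8 to 47.2 CPM in NT, 88.7 to 91.3 in sh#16 and 125 to 136 in sh#87 (1.32 ± 0.17 (SE), adjusted p = 6.40e-05). RAD23B, a shuttle that carries ubiquitinated proteins to the cap, was at 273 to 320 CPM in NT, 138 to 141 in sh#16 and 94.9 to 104 in sh#87 (−1.31 ± 0.15, adjusted p = 2.38e-05). Of 7 antisense, pseudogene and neighbouring transcripts tested, PSME2P2 was higher and PSMC1P1 lower with both shRNAs (background 30.1% and 29.7%). Read-through loci on the same strand, which have no values in the table, cover 100% of the canonical exon bases of PSMA2, 81.4% of PSMA6, 67.0% of PSMA1, 56.1% of PSMB10, 28.8% of PSMD9 and 10.4% of PSMB5, so that the levels of these genes depend on how shared reads were assigned.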

How the data were processed

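The table deposited by the authors held estimated counts of each gene in all 9 libraries, not normalized. File names in its header point to salmon, whereas the methods describe gene counts from STAR with ENSEMBL annotation on GRCh38, and the submitters' processing notes also name STAR. RNA was polyA-selected and prepared with a strand-specific kit. The header is shifted by 1 column against the values, all of which were whole. Every gene had at least 34 counts over the libraries, which held 17096170 to 43502389 counts each.

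Counts were tested in R 4.3.3 with edgeR 4.0.16 (TMM, filterByExpr, quasi-likelihood test, Benjamini-Hochberg adjustment over all 16312 genes tested). Both shRNAs as 1 group against NT used a fit of 2 groups, the other comparisons a fit of 3. SE is the standard error of the log2 fold change. Ratios of counts were compared by exact permutation of libraries. DESeq2 1.42.0, limma-voom (limma 3.58.1), other normalizations, no filter, other thresholds, removal of mitochondrially encoded genes, a replicate block, fits of only the groups compared and leaving out each library were alternatives. The code was tested on simulated data.

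Named were the 6 catalytic subunits, the highest and lowest gene of each role and each other list with both shRNAs, members called with a log2 change of 1 or more or called in sh#87 against sh#16, and MECOM. Other genes named were chosen after their values were seen. The members and lists were chosen with earlier results of these data known. Same-numbered libraries were not paired: the correlations of their deviations from group means lay between −0.22 and 0.11. Replicates of each group differed beyond sampling noise (chi-square per degree of freedom 2.39 to 9.80 in the knockdown groups, 54.4 to 293 in NT). Gene lengths and exon overlaps came from canonical GENCODE transcripts on GRCh37, coordinates and promoters from RefSeq on GRCh38.p14. Protein sequences were not used here, and some genes of the lists are not reported here. Figures used Python 3.11.15 and matplotlib 3.10.9.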

Additional observations from a re-analysis of the deposited data

Results flagged for a closer look

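ECPAS in sh#87 replicate 1, at 31.4 CPM, stood apart from the other 5 knockdown libraries at 36.0 to 37.9 CPM, with a gap of 0.702 of the range over the 6 libraries. The total count of sh#16 replicate 2 stood apart in the same way, with a gap of 0.773 of the range. In all, 40 measures were compared in this way, and such gaps arise by chance in about 1 in 20 groups of 6 like libraries. The 6 libraries here pool sh#16 and sh#87, so that rate may not hold.

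Several genes differed between the shRNAs by the test of the difference itself (sh#87 minus sh#16, log2, edgeR's quasi-likelihood test on all 9 libraries, 3 per group). The differences were −1.30 for PSMB10, −0.72 for PSMA4, −0.69 for PSMG1, −0.50 for PSMA2, −0.40 for PSMD5, −0.34 for PSMC2, −0.31 for PSMA6 and −0.31 for PSMD14. Outside the members, MECOM differed by −0.43, RAD23B by −0.50 and UFD1 by 0.53.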

How the results depend on the processing

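Of the named genes called, 15 of 19 with both shRNAs, 15 of 20 with sh#16, 24 of 27 with sh#87 and 2 of 11 in sh#87 against sh#16 kept their call under every alternative run, and none reversed.

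The counts of proteasome genes called were 16, 19, 29 and 8 for both shRNAs, sh#16, sh#87 and sh#87 against sh#16. Of all genes tested, 59.8%, 60.0%, 67.9% and 17.7% were called. The counts fell to 4, 3, 6 and 1 when a log2 change of 1 or more was also asked for. Of all genes, 38.2%, 34.0%, 43.8% and 4.27% passed that limit. With a log2 change of 2 or more the counts were 1, 1, 1 and 0 (15.4%, 12.8%, 18.9% and 0.45% of all genes). In sh#87 against sh#16 the count was 15 with DESeq2 (24.6% of all genes) and 21 with the adjusted p limit at 0.05 (33.7%). It was 30 with only the libraries compared (48.0%) and 1 with the replicate block (9.7%). The cause of these differences was not tested. With single libraries left out the 4 counts ranged from 15 to 18, 13 to 27, 25 to 31 and 0 to 22. The shares of all genes ranged from 47.9% to 59.1%, 49.7% to 68.2%, 59.5% to 73.9% and 6.65% to 32.4%. The median log2 fold changes moved under upper-quartile normalization to 0.0048 with both shRNAs, 0.13 with sh#16 and −0.11 with sh#87, together with the median of all genes, and over single libraries left out they ranged from −0.14 to −0.0571, −0.0305 to 0.0405, −0.30 to −0.20 and −0.31 to −0.29.

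With the replicate block, which is no pairing here, 16, 16 and 27 proteasome genes were called against NT (53.1%, 55.8% and 64.0% of all genes). With that block the exact permutation p of the log2 ratios PSMB8/PSMB5 (−1.14) and PSMB10/PSMB7 (−3.24) rose to an adjusted 0.0556, where fewer arrangements exist. Over single libraries left out, the log2 differences ranged from −1.20 to −1.05 for PSMB8/PSMB5, −0.98 to −0.23 for PSMB9/PSMB6 and −3.61 to −2.96 for PSMB10/PSMB7.

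Signs changed for genes that were not called. Upper-quartile normalization took PSMB5 with both shRNAs to 0.0313 and PSMA6 and PSMC2 with sh#16 to 0.0171 and 0.0543, and limma-voom took PSME2P2 in sh#87 against sh#16 to 0.0019. With single libraries left out, the values with both shRNAs ranged from −0.0998 to 0.156 for PSMB1, −0.287 to 0.142 for PSMB5, −0.0504 to 0.182 for PSMB6 and −0.0727 to 0.195 for PSMG3. With sh#16 they ranged from −0.0769 to 0.354 for PSMB5 and −0.374 to 0.118 for PSMB9, and with sh#87 from −0.0248 to 0.166 for PSMA2. In sh#87 against sh#16 they ranged from −0.108 to 0.0375 for ADRM1, −0.0103 to 0.0771 for PSMD2, −0.157 to 0.0866 for PSME2P2 and −0.0217 to 0.0870 for PSMG4.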
